A study of Mus musculus with 6 samples.

Results

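Markers of tubular injury and dedifferentiation were followed on arrays of mouse tubular epithelial cells after renal ischemia and reperfusion. The set is a list of 34 genes fixed by symbol, and 33 of them were found by symbol among the 19505 genes named on the array. Spp1, which encodes osteopontin, is not analysed here because the annotation used gave its symbol to no row. Each gene was represented by its brightest transcript cluster, the unit of measurement of this array, and each of the 33 genes had 1 cluster.

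A healthy tubular cell is polarised and spends its effort on transport. After ischemia, surviving cells flatten, lose part of that programme and switch on genes of a simpler, migratory epithelium, among them vimentin, keratins, annexins and adhesion molecules. They also shed or secrete proteins that are used as urinary markers of acute kidney injury, such as KIM-1 (Havcr1), NGAL (Lcn2), TIMP-2 and IGFBP7.

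The 2 groups were IR PT2385 and IR vehicle, with 3 arrays each. The mice of both groups underwent 30 min of renal ischemia and 24 h of reperfusion, and no uninjured group is analysed here, so the values do not show how far a marker was induced by injury. PT2385 blocks HIF-2α, a hypoxia-inducible transcription factor, and was dosed at 10 mg/kg, once 16 h ahead of the operation and then 1, 8 and 20 h following it. The labels write the injected compound once as PT2384, and IRPT in the sample titles was read as the PT2385 arm. Strain, age and sex are not given in the labels, nor is it stated whether each array came from its own animal, so p-values measure the spread between these samples only. Cells were freed with collagenase, which can leave other kidney cells in the isolate. In such bulk RNA, fewer cells of a type and less RNA per cell cannot be told apart.

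Genes of the Y chromosome differed between the groups in every array. Eif2s3y had log2 signals of 3.27, 3.04 and 3.34 in the PT2385 arrays, against 9.09, 9.24 and 9.28 in the vehicle arrays. Uty and Kdm5d differed likewise, by -5.67 and -3.15 on the log2 scale. The treatment and a difference in sex therefore cannot be told apart for any value below. The 13 measured proximal tubule markers, of 16 listed, had means above the highest array median of the negative controls (4.47) in both groups. So did the 9 endothelial and the 10 measured macrophage and monocyte markers. The means of 4 of 10 neutrophil markers (Mpo, Ngp, Ltf and Mmp8) were not above it in either group. Single negative control rows can lie above that median. Array medians were 6.24 to 6.25 in the PT2385 group, against 6.20 in the vehicle group, and array maxima were 13.39 to 13.49 in the PT2385 group, against 13.41 to 13.43 in the vehicle group.

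Of the 33 measured markers, 1 rose in the PT2385 group and 0 fell, by limma with Benjamini-Hochberg adjustment over all 22206 clusters at a threshold of 0.05. Over all clusters 0.829% passed this threshold, 0.333% higher and 0.495% lower. The marker that rose was Cryab, which encodes the small heat shock protein αB-crystallin. At an unadjusted p under 0.05 there were 9 markers, 4 higher and 5 lower, a share of 27.3% against 14.5% of all clusters. The groups did not overlap for 7 markers, a share of 21.2% that is close to the 20.7% of all clusters. PT2385 was the higher group for 4 of the 33 (against 11.6% of all clusters) and the lower group for 3 (against 9.13%). Values were lower in the PT2385 group for 20 markers, a share of 60.6% against 46.5% of all clusters. The median difference was -0.06 on the log2 scale, against 0.02 over all clusters.

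A second pattern concerned the spread inside the PT2385 group. The median SD of a marker was 0.42 over the PT2385 arrays, against 0.22 over the vehicle arrays, while over all clusters it was 0.13 for both. PT2385 replicate 1 held the lowest of the 3 PT2385 values for 30 of the 33 markers, against 37.3% of all clusters. It lay at least 0.5 log2 units below the mean of PT2385 replicates 2 and 3 for 21 markers, against 2.87% of all clusters. Without this array the median difference of the markers was 0.11 and 11 of 33 had lower values in the PT2385 group. Leaving out that 1 array turned the sign of the median.

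**Figure D1:**
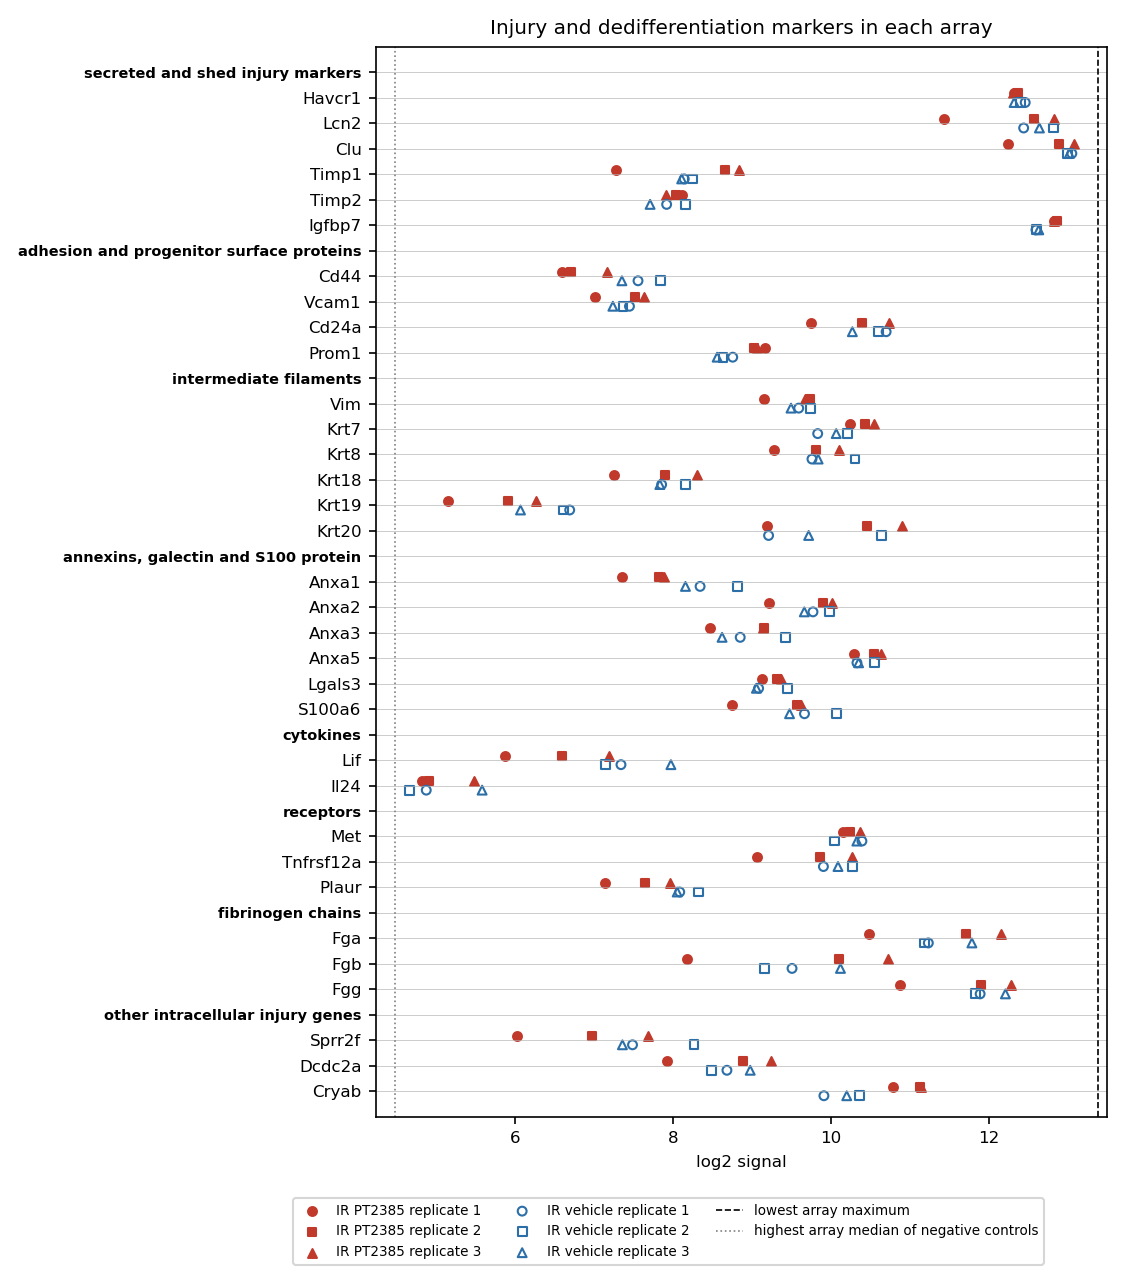
Log2 signal of the 33 measured markers (rows, grouped by role) in each array, with IR PT2385 as filled red symbols above and IR vehicle as open blue symbols below, and 1 symbol shape per replicate. Red circles (PT2385 replicate 1) sit at the left for most markers, and Clu, Igfbp7, Lcn2 and Havcr1 lie closest to the dashed line of the lowest array maximum (13.39).

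Promoter sequences are shown for 6 markers. The fibrinogen genes Fgg, Fga and Fgb are shown because they neighbour each other on chromosome 3 and had the same order of arrays within each group. Lif, Plaur and Prom1 are shown because they were among the 8 markers with the smallest p and hold an AP-1 motif. The sequences are RefSeq's for GRCm38.p6, read 5′ to 3′ on the gene's strand over the 250 bases before the annotated start. In the fibrinogen promoters capitals mark the STAT motif TTCNNNGAA. STAT3 carries interleukin-6 signals to acute-phase genes such as fibrinogen.
Fgg (chr3:83007474-83007723, + strand): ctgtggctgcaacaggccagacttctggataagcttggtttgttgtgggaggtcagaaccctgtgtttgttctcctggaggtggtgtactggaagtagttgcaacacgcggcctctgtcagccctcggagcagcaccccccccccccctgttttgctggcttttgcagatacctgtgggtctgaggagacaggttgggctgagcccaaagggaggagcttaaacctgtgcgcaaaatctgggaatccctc
Fga (chr3:83025903-83026152, + strand): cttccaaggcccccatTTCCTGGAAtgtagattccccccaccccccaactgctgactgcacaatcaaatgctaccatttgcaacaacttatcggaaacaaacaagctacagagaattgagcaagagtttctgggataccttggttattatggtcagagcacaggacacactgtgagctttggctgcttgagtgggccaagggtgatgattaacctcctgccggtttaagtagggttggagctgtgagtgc
Fgb (chr3:83049864-83050113, - strand): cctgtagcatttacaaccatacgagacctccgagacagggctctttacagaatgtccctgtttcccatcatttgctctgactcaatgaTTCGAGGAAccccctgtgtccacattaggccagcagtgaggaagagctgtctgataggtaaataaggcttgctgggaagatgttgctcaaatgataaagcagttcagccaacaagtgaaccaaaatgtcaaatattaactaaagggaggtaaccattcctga

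The motif begins 234 bases before the start of Fga and 162 bases before that of Fgb, and these letters are not in the window of Fgg. Only this form of the STAT motif was searched for, so its absence does not show that Fgg lacks a STAT site. In the next sequences capitals mark the AP-1 motif TGACTCA. AP-1 (FOS and JUN dimers) is a stress-activated transcription factor.
Lif (chr11:4257318-4257567, + strand): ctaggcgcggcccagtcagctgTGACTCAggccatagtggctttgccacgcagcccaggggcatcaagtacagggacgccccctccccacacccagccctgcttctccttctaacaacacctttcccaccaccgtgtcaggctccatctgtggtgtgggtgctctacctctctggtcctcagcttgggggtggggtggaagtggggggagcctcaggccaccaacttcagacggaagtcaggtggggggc
Plaur (chr7:24462233-24462482, + strand): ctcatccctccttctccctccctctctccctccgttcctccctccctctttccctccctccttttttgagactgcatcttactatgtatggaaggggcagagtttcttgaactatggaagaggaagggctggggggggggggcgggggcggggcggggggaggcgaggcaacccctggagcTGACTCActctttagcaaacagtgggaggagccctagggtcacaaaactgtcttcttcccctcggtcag
Prom1 (chr5:44101737-44101986, - strand): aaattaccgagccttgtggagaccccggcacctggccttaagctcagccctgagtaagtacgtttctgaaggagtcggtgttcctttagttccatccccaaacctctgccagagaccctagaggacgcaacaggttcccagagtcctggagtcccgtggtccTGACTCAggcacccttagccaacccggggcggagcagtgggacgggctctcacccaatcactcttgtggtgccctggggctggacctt

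The AP-1 motif begins 228 bases before the start of Lif, 69 before Plaur and 88 before Prom1, where 1 of 2 annotated start sites has it. Both strands were searched for each motif, and the motifs were counted independently of any overlap between them. Of the 33 markers, 26 matched a promoter entry. TGACTCA was present for 7 of these (Anxa2, Fgb, Lif, Met, Plaur, Prom1 and Sprr2f), a share of 26.9%, against 5.16% of all 27025 genes with a promoter entry. TTCNNNGAA was present for 3 (Dcdc2a, Fga and Fgb), 11.5% against 8.13%. The core of the HIF motif, ACGTG or GCGTG, was present for 14, 53.8% against 41.5%. A match describes the letters of the window and does not show binding.

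Of the 6 measured secreted and shed markers, 4 were among the brightest transcripts of the arrays, while Timp1 and Timp2 ranked 4670 and 5424 by mean signal among all clusters. In this group 0 of 6 passed the test. Havcr1 (cluster TC1100000483.mm.2) encodes KIM-1, a receptor for apoptotic cells that injured proximal tubule cells expose. It had 12.33, 12.37 and 12.31 in the PT2385 arrays, against 12.46, 12.41 and 12.32 in the vehicle arrays. The groups overlapped, with a difference of -0.06 (SE 0.09, 95% interval -0.27 to 0.14, limma adjusted p = 0.784). Lcn2 encodes NGAL, an iron-siderophore carrier. It had 11.44, 12.57 and 12.83 in the PT2385 arrays, against 12.44, 12.83 and 12.64 in the vehicle arrays. Only PT2385 replicate 1 stood apart, and PT2385 replicates 2 and 3 were as high as the vehicle arrays. The difference was -0.36 (95% interval -1.07 to 0.36, limma adjusted p = 0.635) and without that array 0.06.

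Clu, the gene of the secreted chaperone clusterin, had 12.25, 12.89 and 13.08 in the PT2385 arrays, against 13.056, 13.003 and 13.024 in the vehicle arrays. The vehicle arrays lay close together (SD 0.03). PT2385 replicates 1 and 2 were both below them all, replicate 1 by more, and replicate 3 was above them. Its difference was -0.29 (95% interval -0.73 to 0.15, limma adjusted p = 0.531). Clu ranked 14 by mean signal among all clusters, Igfbp7 20, Lcn2 32 and Havcr1 39. Their brightest arrays were 0.37, 0.56, 0.60 and 0.96 log2 units below the array maximum. Array signals can be compressed near the maximum, so differences of these 4 genes may be understated. Compression was not tested.

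Igfbp7, an insulin-like growth factor binding protein used with TIMP-2 as a urinary marker of cell cycle arrest, had the tightest replicates of the list. It had 12.83, 12.86 and 12.83 in the PT2385 arrays, against 12.60, 12.61 and 12.64 in the vehicle arrays. Every PT2385 array was above every vehicle array. The difference was 0.22 (SE 0.09, 95% interval 0.03 to 0.42) but did not pass over all clusters (limma adjusted p = 0.289). Timp2, a metalloproteinase inhibitor, differed by 0.09 (95% interval -0.20 to 0.39). Timp1, an inducible inhibitor of the same family on the X chromosome, had 7.28, 8.66 and 8.84 in the PT2385 arrays, against 8.14, 8.24 and 8.11 in the vehicle arrays. Here PT2385 replicate 1 was below and PT2385 replicates 2 and 3 above all vehicle arrays. The difference was 0.09 (limma adjusted p = 0.925), and without that array 0.58 (limma adjusted p = 0.0706).

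Surface proteins of adhesion and of progenitor-like cells split in both directions, with 0 of 4 past the threshold. Cd44, the hyaluronan receptor that rises on regenerating tubules, had 6.59, 6.71 and 7.17 in the PT2385 arrays, against 7.56, 7.84 and 7.35 in the vehicle arrays. All PT2385 arrays were lower, by -0.76 (SE 0.18, 95% interval -1.16 to -0.36, limma adjusted p = 0.114). It passed without PT2385 replicate 3 (limma adjusted p = 0.0457) and with array weights (limma adjusted p = 0.0386). Prom1, which encodes CD133, had 9.16, 9.02 and 9.07 in the PT2385 arrays, against 8.76, 8.63 and 8.56 in the vehicle arrays. All PT2385 arrays were higher, by 0.43 (SE 0.10, 95% interval 0.21 to 0.66, limma adjusted p = 0.106). PT2385 replicate 1, low for most markers, was the highest of the 6 arrays for Prom1. Cd24a, a surface glycoprotein, and Vcam1, the integrin ligand of inflamed and failed-repair cells, overlapped between groups, with differences of -0.23 and 0.03.

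**Figure D2:**
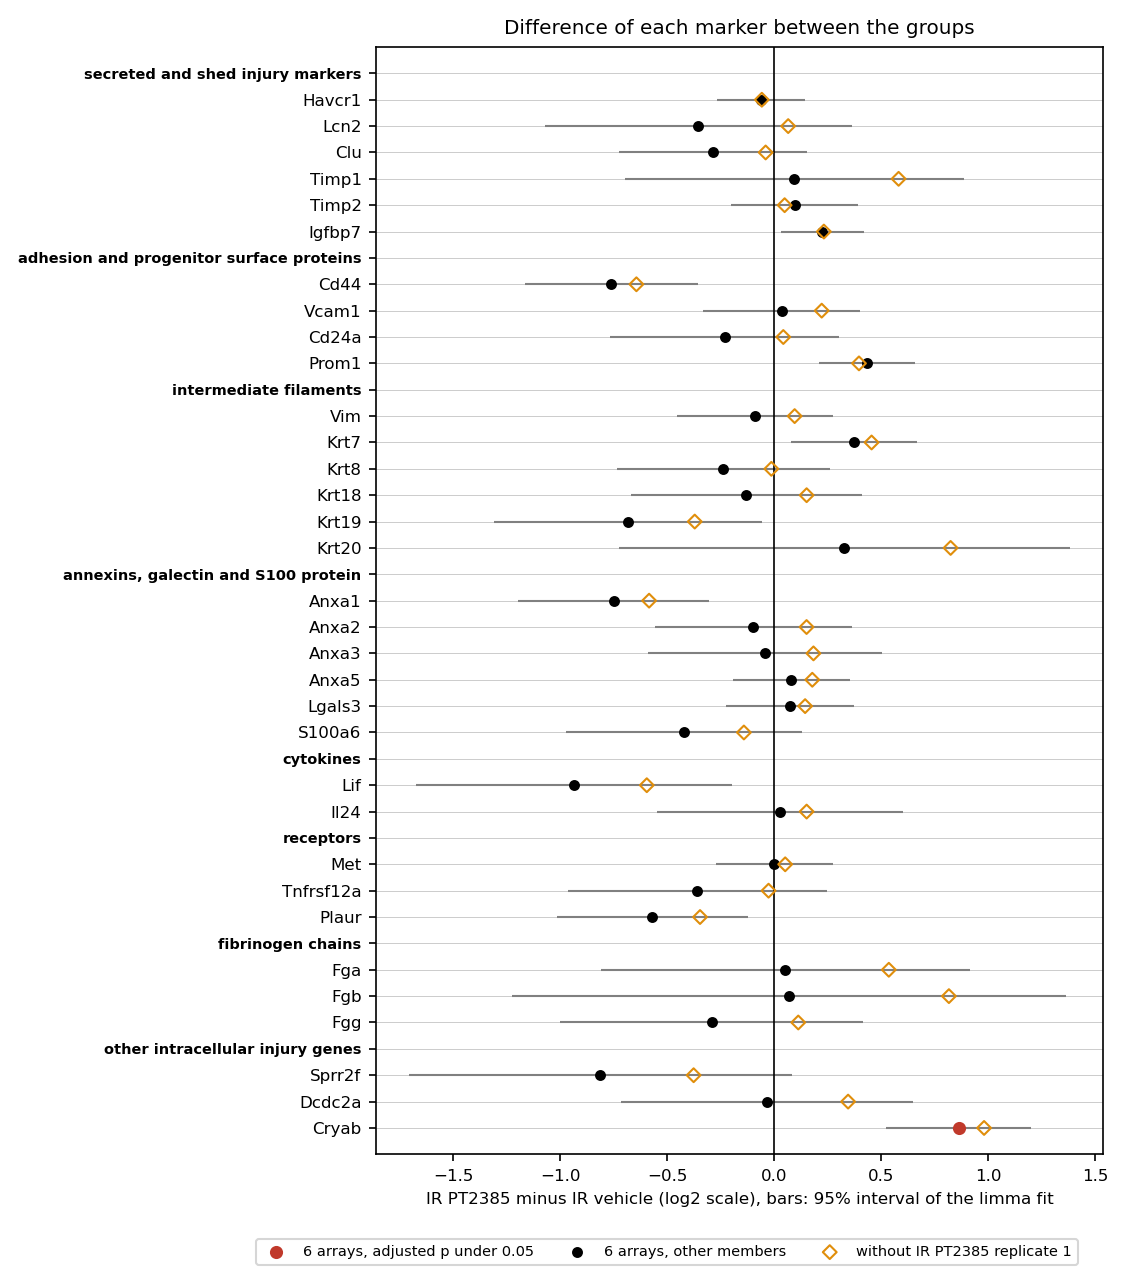
Difference of each marker, IR PT2385 minus IR vehicle on the log2 scale (horizontal axis), with its 95% interval from the limma fit over 6 arrays (dots and bars) and the difference without PT2385 replicate 1 (open diamonds). Cryab (red) is the marker past the threshold, at 0.86, and for most markers the diamond lies to the right of the dot.

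Intermediate filament genes form the scaffold of the epithelial cell, and 0 of 6 passed. Krt7, a keratin of ducts and collecting system, had 10.25, 10.43 and 10.55 in the PT2385 arrays, against 9.83, 10.21 and 10.07 in the vehicle arrays. The lowest PT2385 array was just above the highest vehicle array, with a difference of 0.37 (SE 0.13, limma adjusted p = 0.249). Krt20, an intermediate filament gene of urothelium and injured tubules, varied in both groups. It had 9.19, 10.46 and 10.90 in the PT2385 arrays, against 9.21, 10.65 and 9.72 in the vehicle arrays. Its 95% interval ran from -0.73 to 1.38. The simple-epithelial pair partners Krt8 and Krt18 differed by -0.24 and -0.13, Krt19 by -0.68 (limma adjusted p = 0.309) and Vim, the mesenchymal filament gene, by -0.09. Of these 4, the groups overlapped for every one, and PT2385 replicate 1 was the lowest PT2385 array for all 6 filament genes.

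Annexins bind membrane phospholipids in the presence of calcium, and galectin-3 (Lgals3) and S100A6 (S100a6) are a sugar-binding and a calcium-binding protein of injured epithelium. In this group 0 of 6 passed. Anxa1, which restrains leukocyte recruitment, had 7.36, 7.82 and 7.89 in the PT2385 arrays, against 8.34, 8.82 and 8.16 in the vehicle arrays. All PT2385 arrays were lower, by -0.75 (SE 0.20, 95% interval -1.20 to -0.30, limma adjusted p = 0.152). The other annexins were close between groups, with differences of -0.10 for Anxa2, -0.04 for Anxa3 and 0.08 for Anxa5. Lgals3 differed by 0.07, and S100a6 by -0.42 (95% interval -0.98 to 0.13). All 5 of these overlapped between groups.

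Of the cytokines, Lif, an interleukin-6 family member, had the largest lower value of the list. It had 5.87, 6.59 and 7.19 in the PT2385 arrays, against 7.34, 7.15 and 7.97 in the vehicle arrays. The highest PT2385 array overlapped the lowest vehicle array. The difference was -0.94 (SE 0.32, 95% interval -1.68 to -0.20, limma adjusted p = 0.249). Il24, a cytokine of the interleukin-10 family, was the dimmest marker, at 5.06 ± 0.36 with PT2385, against 5.04 ± 0.48 with vehicle (mean ± SD, n = 3 each). Both means of 3 markers (Il24, Krt19 and Vcam1) and the PT2385 mean of 3 others (Lif, Cd44 and Sprr2f) lay inside the range of the array's background control rows (2.41 to 7.47), so their differences can be understated.

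Receptors of growth and protease signals gave 0 calls of 3. Plaur, the urokinase receptor, had 7.14, 7.65 and 7.97 in the PT2385 arrays, against 8.08, 8.32 and 8.05 in the vehicle arrays. All PT2385 arrays were lower, by -0.57 (SE 0.20, 95% interval -1.02 to -0.13, limma adjusted p = 0.247), although PT2385 replicate 3 came close to the vehicle arrays. Met, the receptor of hepatocyte growth factor, averaged 10.26 in both groups, with a 95% interval of -0.27 to 0.27. Tnfrsf12a, which encodes the TWEAK receptor Fn14, differed by -0.36, and PT2385 replicate 1 (9.07) was below the other arrays (9.86 to 10.27).

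The 3 chains of fibrinogen, a clotting protein that injured tubules also make, included the widest spread of any marker, that of Fgb. Fgb had 8.17, 10.10 and 10.72 in the PT2385 arrays, against 9.51, 9.16 and 10.12 in the vehicle arrays. The PT2385 arrays thus spanned 2.55 log2 units, and the vehicle arrays 0.96. Fga had 10.49, 11.72 and 12.16 in the PT2385 arrays, against 11.24, 11.19 and 11.79 in the vehicle arrays. Fgg had 10.88, 11.90 and 12.28 in the PT2385 arrays, against 11.89, 11.83 and 12.21 in the vehicle arrays. All 3 genes had replicate 1 lowest, replicate 2 between and replicate 3 highest among the PT2385 arrays, an order that 27 of the 33 markers shared, against 22.4% of all clusters. In addition, all 3 were highest in vehicle replicate 3 and lowest in vehicle replicate 2 among the vehicle arrays. Lif, Il24 and Dcdc2a, on other chromosomes, had the same order of arrays within both groups. The differences of Fgb, Fga and Fgg were 0.07, 0.05 and -0.29, with limma adjusted p of 0.969, 0.966 and 0.697. The 95% interval of Fgb (-1.22 to 1.36) was the widest of the list.

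Cryab (cluster TC0900000605.mm.2, chromosome 9) was the member that passed. It had 10.78, 11.13 and 11.15 in the PT2385 arrays, against 9.91, 10.37 and 10.20 in the vehicle arrays. All PT2385 arrays were higher, by 0.86 (SE 0.15, 95% interval 0.52 to 1.20, limma adjusted p = 0.0457), a 1.82-fold difference. The call was lost without any 1 of the vehicle arrays, PT2385 replicate 2 or PT2385 replicate 3, with limma adjusted p between 0.0884 and 0.227, and was kept without PT2385 replicate 1 (0.0304). It was also lost with median-centred arrays (limma adjusted p = 0.0513) and with control rows kept (0.108). Hspb2, a small heat shock gene next to Cryab, differed by 0.16 (limma adjusted p = 0.576). Sprr2f, a cornified-envelope precursor gene switched on in injured tubules, differed by -0.81 (95% interval -1.71 to 0.08, limma adjusted p = 0.385). Dcdc2a, a doublecortin-domain gene that binds microtubules, averaged 8.68 ± 0.68 with PT2385, against 8.72 ± 0.24 with vehicle (mean ± SD, n = 3 each).

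**Figure D3:**
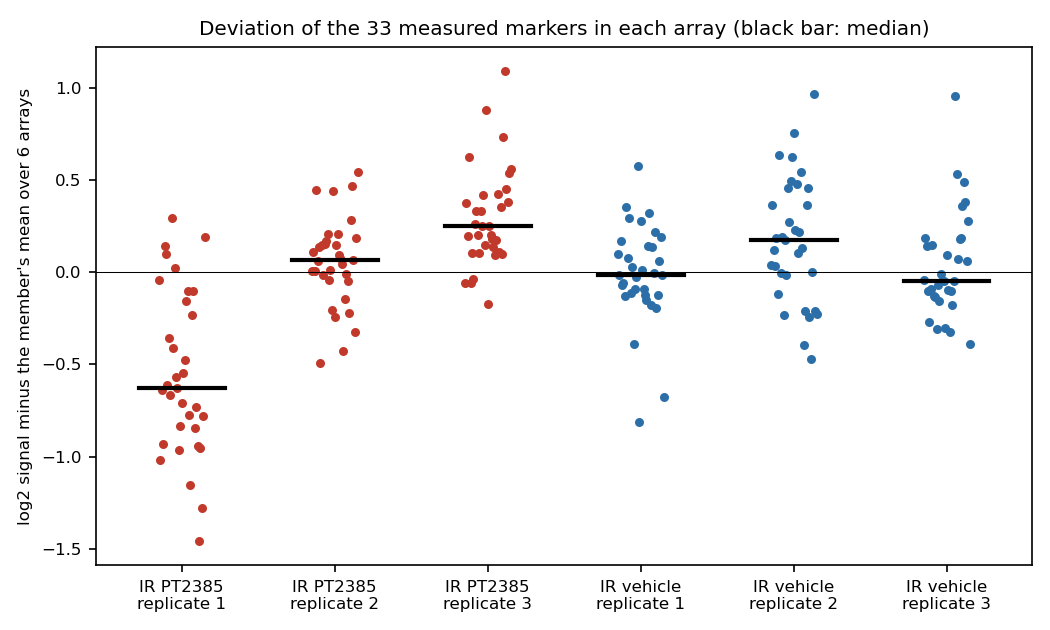
Log2 signal of each of the 33 measured markers minus its own mean over the 6 arrays (vertical axis), 1 dot per marker and array, with IR PT2385 arrays at the left and a black bar at the median. The median lies at -0.63 in PT2385 replicate 1 and between -0.05 and 0.25 in the other 5 arrays.

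Each marker was then set against its own 6-array mean. The median deviation stood at -0.63, 0.07 and 0.25 in the PT2385 arrays, against -0.02, 0.17 and -0.05 in the vehicle arrays. PT2385 replicate 1 held the lowest of all 6 values for 24 markers, against 19.9% of all clusters. The exceptions were those given above with higher values in all PT2385 arrays (Cryab, Prom1, Krt7 and Igfbp7), together with Havcr1, Timp2, Il24, Met and Lgals3. Within the vehicle group, replicate 2 was highest for 19 of the 33 markers, against 32.4% of all clusters.

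Other injury and repair genes showed the same spread. Of 19 measured genes of 22 listed, 16 had lower values in the PT2385 group (84.2%, against 46.5% of all clusters), with a median difference of -0.36. PT2385 replicate 1 was the lowest PT2385 array for 16, against 37.3% of all clusters. The 2 that passed, against 0.829% of all clusters, both rose. Cdh6, a cadherin of the developing proximal tubule, had 8.74, 8.99 and 8.86 in the PT2385 arrays, against 7.58, 7.65 and 7.69 in the vehicle arrays, a difference of 1.22 (SE 0.10, limma adjusted p = 0.00125) that passed in all 16 alternatives. Cp, the ferroxidase ceruloplasmin, differed by 0.97 and passed in 6 of 16 alternatives (limma adjusted p = 0.0484). Sox9, a transcription factor of regenerating tubules, had 5.96, 7.08 and 7.93 in the PT2385 arrays, against 8.24, 8.54 and 8.89 in the vehicle arrays, without passing (difference -1.56, limma adjusted p = 0.162). Hmox1 (-1.06, limma adjusted p = 0.0566) and Il18 (-0.85, limma adjusted p = 0.130) were also lower in all PT2385 arrays, with smaller p than Sox9. Sox9, Hmox1 and Il18 were named here after their values were seen.

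Genes of the signalling around the members gave 0 calls, and in the order below 2, 3, 4 and 0 were at an unadjusted p under 0.05. These were shares of 11.8%, 33.3%, 40% and 0%, against 14.5% of all clusters. Among 17 genes of interleukin-6 family reception and STAT3 signalling the median difference was -0.11. The smallest p were those of Il6 (-0.89) and Bcl3 (-0.92). Neither group mean of Il6 was above the highest array median of the negative controls. Among 9 genes of HGF activation and MET adaptors the median difference was 0.06 (Hgfac 0.37, Hpn -0.42). For 10 measured plasminogen activator and metalloproteinase genes it was -0.11 (Mmp9 -0.64, Plat 0.89). Integrin receptors of osteopontin and VCAM-1 (8 genes) had -0.12, with Itga8 at 0.35 and Itga4 at -0.14. Relatives of the members likewise gave 0 calls, with 2, 2, 1, 1 and 0 at an unadjusted p under 0.05. Their shares were 18.2%, 25%, 9.09%, 11.1% and 0%, against 14.5% of all clusters. The median was 0.05 over 11 other keratins (Krt16 0.33, Krt5 -0.57), 0.07 over 8 other annexins (Anxa6 0.53, Anxa7 -0.38), and 0.04 over 11 other S100 and galectin genes (Lgals8 -0.40, S100a14 0.21). It was 0.02 over 9 other small proline-rich genes (Sprr1a 0.61, Sprr2g -0.78) and -0.24 over 5 other crystallin and small heat shock genes (Hspb8 -0.54, Hspb2 0.16).

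Markers of nephron segments moved with the same arrays. The mean deviation of 13 proximal tubule markers was 0.52, -0.00 and -0.48 in the PT2385 arrays, against 0.03, -0.18 and 0.12 in the vehicle arrays, with Slc22a6 lower (-0.97, limma adjusted p = 0.00572). Values were nevertheless higher in the PT2385 group for 8 of the 13, with a median difference of 0.08. The array with the lowest injury markers was thus the one with the highest proximal tubule markers. Markers of the distal convoluted tubule and loop of Henle (10 genes) stood at 1.07, 0.44 and 0.09 in the PT2385 arrays, against -0.57, -0.56 and -0.47 in the vehicle arrays. Of these, 9 were higher at an unadjusted p under 0.05, a share of 90% against 14.5% of all clusters. Cldn19 was past the threshold (1.24, limma adjusted p = 0.0259, called in 12 of 16 alternatives). The 11 collecting duct markers stood at 0.33, 0.24 and 0.14 in the PT2385 arrays, against -0.31, -0.23 and -0.17 in the vehicle arrays. Among them 0 passed the threshold and 6 were at an unadjusted p under 0.05, a share of 54.5% against 14.5% of all clusters. The smallest p were those of Scnn1b (0.55) and Aqp2 (1.10). Both lists, like Cryab, Krt7, Prom1 and Igfbp7, were higher in every PT2385 array, and their part in those values was not tested.

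Markers of other cells were set beside the list as well. The 8 urothelial markers, relevant to Krt7, Krt19, Krt20 and Sprr2f, had mean levels of 5.55, 5.61 and 5.75 in the PT2385 arrays, against 5.06, 5.43 and 5.57 in the vehicle arrays. Among them 0 passed the threshold and 5 were at an unadjusted p under 0.05, a share of 62.5% against 14.5% of all clusters. The smallest p were those of Upk3b (0.44) and Krt5 (-0.57). Both means of all 8 urothelial and all 10 measured neutrophil markers, and of 7 of the 10 macrophage and monocyte markers, were within the span of the background controls, so their differences can be understated. The neutrophil list deviated by -0.44, -0.18 and 0.09 in the PT2385 arrays, against 0.15, 0.27 and 0.11 in the vehicle arrays, with Csf3r lower (-1.04, limma adjusted p = 0.0326, called in 11 of 16 alternatives). Among the 10 neutrophil markers, 4 had higher values in the PT2385 group (Mpo, Camp, Ltf and Mmp8) and 6 lower. Neither group mean of Mpo, Ltf and Mmp8, nor of Ngp among the lower ones, was above the highest array median of the negative controls. Lower in all PT2385 arrays were 4 of the 10 (S100a8, S100a9, Csf3r and Ngp), against 9.13% of all clusters, and 0 were higher in all. S100a8 differed by -1.56 (limma adjusted p = 0.0972) and S100a9 by -1.01 (limma adjusted p = 0.213). The median difference of the 10 was -0.18. The 10 measured macrophage and monocyte markers deviated by -0.21, -0.11 and -0.02 in the PT2385 arrays, against 0.34, -0.03 and 0.02 in the vehicle arrays, with Lyz2 lower (-1.19, limma adjusted p = 0.0202, called in 13 of 16 alternatives). Of these 10, 5 had higher values in the PT2385 group (C1qa, C1qb, C1qc, Ly6c2 and Cd14) and 5 lower, with a median difference of 0.03. Lower in all PT2385 arrays were 2 (Lyz2 and Ccr2), against 9.13% of all clusters, and 0 were higher in all. Ccr2 differed by -1.15 (limma adjusted p = 0.127). S100a8, S100a9 and Ccr2 were named here after their values were seen. The podocyte, endothelial, fibroblast, lymphocyte, platelet and erythroid, and hepatocyte lists had 0 calls, with median differences of 0.04, 0.11, 0.14, 0.13, 0.07 and 0.10. The part of the leukocyte lists in the lower values of Lcn2, Cd44, Anxa1, Plaur and Lif, which leukocytes also express, was not tested.

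**Figure D4:**
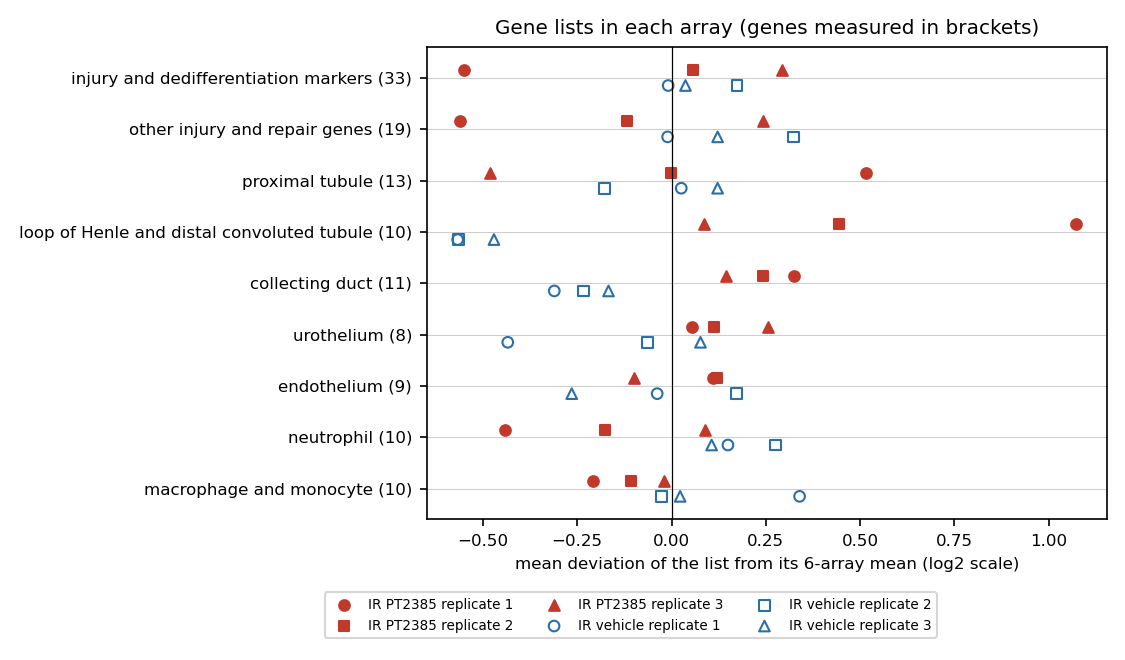
Mean deviation of each gene list from its 6-array mean on the log2 scale (horizontal axis), per array, with IR PT2385 as filled red symbols and IR vehicle as open blue symbols. PT2385 replicate 1 (red circle) is lowest for the injury markers (-0.55) and highest for the proximal tubule markers (0.52) and for the loop and distal markers (1.07).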

How the data were processed

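The authors deposited 1 value table of log2 signals, 1 per transcript cluster and array. That the scale is log2 was read from the values, since no header states it. Transcriptome Analysis Console was used, per the submitters' processing notes, without a version. Background correction, summarisation and normalization have no statement in the labels or headers (not given in the sources used here). Of 28846 rows, 6640 control rows were left out and 22206 clusters were tested without a filter on dim signals. Symbols came from the platform annotation, which named 19572 clusters.

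The test was limma 3.58.1 under R 4.3.3 (lmFit, eBayes, 2-sided, Benjamini-Hochberg over all clusters); every difference is the PT2385 mean less the vehicle mean, in log2 units. In simulated arrays of this size the fit recovered 28% of 50 clusters shifted by 0.5, 84% at a shift of 1 and 96% at 2. There were 11 false calls among the clusters left unshifted. Noise was drawn independently for each cluster, with the same SD in both groups. The simulation thus held no deviation shared by many genes of an array, as PT2385 replicate 1 showed. Recovery and false calls under such deviations, and recovery at the spread of the 33 markers, were not tested. The median SD of these markers was 0.42 over the PT2385 arrays and 0.22 over the vehicle arrays, against 0.13 for both over all clusters. Arrays give no depth, and their number limits the precision. At most 0.234% of values were equal between 2 arrays, so none duplicated another.

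The members and lists were chosen with earlier results of these data known. All members were to be named. Those given for every array were Havcr1, Lcn2, the calls, the 8 with the smallest p, the 4 with the largest SD and the 4 nearest the maximum, with others in ranges, and Fgg was added after its values were seen. Of each pathway list, calls or else the 2 genes with the smallest p were named. Alternatives were the replicate block, 3 between-array scalings, a filter on dim clusters, another variance prior, array weights, 1 cluster per gene, omission of the X and Y chromosomes, control rows kept and omission of each array. Promoter windows were searched with Python 3.11.15.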

Additional observations from a re-analysis of the deposited data

How the results depend on the processing

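With array weights 191 clusters were called higher and 265 lower, against 74 and 110, and with control rows kept 19 and 46. When 1 array was left out, 14 to 76 were called higher and 28 to 117 lower, with the fewest without PT2385 replicate 2. The count of markers called higher was 0 with median-centred arrays and with control rows kept, and 0 to 1 when 1 array was left out. The count called lower was 1 (Cd44) with array weights, and 0 to 1 when 1 array was left out. The median difference of the markers ran from -0.30 (without PT2385 replicate 3) to 0.11 (without PT2385 replicate 1) and was 0.013 with array weights.

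Direction turned for some markers, among them Lcn2, Krt20, Fgg and Cd24a when 1 array was left out, and 0 of the turned values passed the threshold. These were, with array weights, Vim 0.027, Anxa2 0.017, Anxa3 0.072, Met 0.0058, Dcdc2a 0.13; with quantile normalization, Anxa3 0.020, Il24 -0.050, Met 0.031, Dcdc2a 0.016; with cyclic loess, Anxa3 0.0097, Il24 -0.060, Met 0.048, Dcdc2a 0.017; and with median-centred arrays, Vcam1 -0.011, Il24 -0.019. When 1 array was left out, the ranges were -0.63 to 0.065 for Lcn2, -0.20 to 0.58 for Timp1, -0.016 to 0.21 for Timp2, -0.087 to 0.22 for Vcam1, -0.46 to 0.042 for Cd24a, -0.20 to 0.095 for Vim, -0.37 to 0.15 for Krt18, -0.032 to 0.82 for Krt20, -0.25 to 0.15 for Anxa2, -0.21 to 0.19 for Anxa3, -0.18 to 0.30 for Il24, -0.11 to 0.068 for Met, -0.30 to 0.54 for Fga, -0.46 to 0.82 for Fgb, -0.59 to 0.11 for Fgg and -0.31 to 0.34 for Dcdc2a. The cause was not tested. Each marker had 1 cluster, so a dimmer cluster could not be tried, and Timp1 has no value without the X chromosome.

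No pairing of the samples by replicate number was seen, though 3 arrays a group are too few to settle it. Deviations of same-numbered arrays correlated at 0.14, 0.03 and -0.06 across clusters, and not every array correlated best with its own number. The fit with the replicate number as a block gave 70 higher and 108 lower calls and kept 1 marker, Cryab, at 0.86. With 3 arrays a group, small differences and genes near the background control signals are least certain.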
